A study of Homo sapiens with 12 samples.

Results

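The 9 genes described here encode the plasminogen activators PLAU and PLAT, the urokinase receptor PLAUR, the matrix metalloproteinases MMP2, MMP14 and MMP15, and the tissue inhibitors of metalloproteinases TIMP1, TIMP2 and TIMP3. They were chosen by symbol, and each matched 1 of the 63152 gene rows of the count table. Of the 9, 8 had enough reads to be tested, among 16839 genes tested in all, and MMP2 did not.

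Plasmin and the metalloproteinases cut proteins in the space around a cell. Urokinase (PLAU) and tissue plasminogen activator (PLAT) are serine proteases that convert plasminogen, a zymogen made mainly by hepatocytes, into plasmin. Urokinase does so while held at the cell surface by its receptor PLAUR. MMP14 and MMP15 are membrane-anchored metalloproteinases. MMP14 is known for activating the secreted gelatinase MMP2 in a complex that includes TIMP2. The TIMP proteins block metalloproteinases, and TIMP3 is held in the matrix. These genes are commonly followed in the epithelial-to-mesenchymal transition (EMT), the subject of the study's title, because migrating cells use their products to cross matrix.

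Poly-A RNA was sequenced from 12 cultures of human cells labelled HepG2, a liver tumour line, after 24 h. All were grown to near confluency in medium with serum, insulin and dexamethasone. There were 3 groups of 4 libraries: control, 2.5 µM acriflavine and 5 µM acriflavine. Acriflavine is a mixture of DNA-intercalating acridine dyes that is known as an inhibitor of the pairing of hypoxia-inducible factor 1 subunits. Control cultures are called untreated in the labels, but the treatment protocol names the vehicle DMSO. The cell line field gives HepG2, while the description of all 12 samples names HepG2S1, a derivative selected for sorafenib resistance, so which of the lines was used is not settled by the labels. The labels call the libraries biological replicates without saying how the cultures were set up, so p-values measure the spread between these libraries.

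Totals ranged from 10733567 to 15116842 counts per library, and levels are given as CPM, the read counts scaled to a common library total. Genes with at least 5 counts numbered 18129 to 18977 per library at 5 µM and 16690 to 17135 in the controls. The levels of hepatocyte genes went against the label: of 14 hepatocyte markers, 13 averaged under 1 CPM in the controls, and albumin (ALB), alpha-fetoprotein (AFP) and FOXA2 had 0 counts there. CPS1 was the exception, at 2185 CPM in the controls and 945 CPM at 5 µM. The 14 hepatocyte markers summed to 933 to 966 CPM at 5 µM and 2141 to 2245 CPM in the controls, mostly CPS1. Of the 4 tested at 5 µM against control, CPS1 was lower and 3 were higher. These were APOB, FGB and HNF4A, at 1.42, 2.04 and 1.22 CPM at 5 µM. Of 8 fibroblast markers, DCN averaged 563 CPM and LUM 119 CPM in the controls, whereas COL1A2, COL3A1 and THY1 were at 0 counts and PDGFRA at 1. The summed level of these fibroblast markers was 557 to 599 CPM at 5 µM and 619 to 769 CPM in the controls. DCN and LUM were lower at 5 µM, whereas PDGFRB (log2 fold change 1.86) and COL1A1 (0.45) were higher. Among 5 endothelial markers, PECAM1 was at 0 in all libraries and CDH5 had 1 count, and their summed level was 7.13 to 8.69 CPM at 5 µM, mostly TEK, against 0.169 to 0.537 CPM in the controls. The 5 blood cell markers summed to 3.56 to 5.27 CPM at 5 µM and 0.448 to 1.18 CPM in the controls, with CD3E at 0 in every library. The 5 epithelial markers summed to 1158 to 1340 CPM at 5 µM and 1996 to 2422 CPM in the controls. Of these, the keratins KRT8, KRT18 and KRT19 were lower at 5 µM, while CDH1 (log2 fold change 3.70) and EPCAM (0.73) were higher. The part of these shifts in the results for the 9 genes was not tested. In bulk RNA, fewer cells of a type and less RNA per cell cannot be told apart.

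The promoters of 4 genes are shown because their levels took different courses over the doses. MMP14 and PLAU were scarce in the controls and highest at 5 µM, while PLAUR and TIMP3 were lowest at 2.5 µM. Each sequence is the 250 bases upstream of a RefSeq transcript start on GRCh38.p14, 5′ to 3′ on the gene's strand. Capitals mark matches on either strand to any of 4 motifs. The AP-1 site was searched as TGANTCA. The GC box, which Sp1 family factors bind, was searched as GGGCGG. The letters of the TATA box were TATAAA. The core of the hypoxia response element was searched as ACGTG.
MMP14 (chr14:22836335-22836584, plus strand): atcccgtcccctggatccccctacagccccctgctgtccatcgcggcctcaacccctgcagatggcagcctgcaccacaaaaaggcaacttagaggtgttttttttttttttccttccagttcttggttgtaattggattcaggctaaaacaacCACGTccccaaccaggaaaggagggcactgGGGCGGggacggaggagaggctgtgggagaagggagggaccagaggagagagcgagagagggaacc
PLAU (chr10:73910882-73911131, plus strand): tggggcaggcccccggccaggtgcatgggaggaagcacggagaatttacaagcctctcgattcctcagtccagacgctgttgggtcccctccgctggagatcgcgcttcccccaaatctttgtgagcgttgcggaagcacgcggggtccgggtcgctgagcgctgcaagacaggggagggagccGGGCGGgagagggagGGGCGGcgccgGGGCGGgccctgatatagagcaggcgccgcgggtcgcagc
PLAUR (chr19:43670170-43670419, minus strand): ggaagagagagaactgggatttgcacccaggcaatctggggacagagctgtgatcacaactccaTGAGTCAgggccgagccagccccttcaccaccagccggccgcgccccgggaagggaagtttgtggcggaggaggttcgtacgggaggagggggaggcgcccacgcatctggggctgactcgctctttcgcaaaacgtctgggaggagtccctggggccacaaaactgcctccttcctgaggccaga
TIMP3 (chr22:32801455-32801704, plus strand): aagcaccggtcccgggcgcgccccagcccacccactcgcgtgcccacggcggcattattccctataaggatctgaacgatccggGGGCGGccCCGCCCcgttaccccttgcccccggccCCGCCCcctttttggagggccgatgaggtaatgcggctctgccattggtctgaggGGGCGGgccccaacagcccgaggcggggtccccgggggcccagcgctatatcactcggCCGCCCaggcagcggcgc

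The MMP14 window held 1 GC box, its first base 66 bases before the start, and 1 hypoxia response core 96 bases before it. The PLAU window held 3 GC boxes, and a second PLAU start listed by RefSeq had none of the 4 motifs in its window. The PLAUR window held an AP-1 site 186 bases before the start and no GC box. TIMP3 had 5 GC boxes. Of the other members, MMP15 had 5 GC boxes, and TIMP1 had 2 GC boxes and 1 hypoxia response core. No promoter of PLAT, MMP2 or TIMP2 is described here. Over the windows of all 35116 promoters in the table, 6.57% held the AP-1 letters, 42.6% the GC box, 18.5% the hypoxia core, and 3763 of them the TATA box. No match overlapped a match to another motif. A match describes the letters only.

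The levels of the 9 genes spanned several orders of magnitude, and inhibitors were the most abundant. Levels between genes are compared as CPM per kilobase of exon. In the controls, TIMP2 averaged 140.3 ± 5.50 and TIMP1 126 ± 9.41 (SD, n = 4), and the libraries of these 2 genes overlapped. MMP15 followed at 21.97 ± 1.55, then TIMP3 at 8.61 ± 0.493 and PLAUR at 7.13 ± 1.28, which overlapped each other. PLAT was at 0.178 ± 0.0546 and PLAU at 0.0712 ± 0.0592, also overlapping. MMP2 and MMP14 came last, with 2 counts and 1 count over the 4 control libraries.

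At 5 µM the order per kilobase changed at its lower end. TIMP2 was at 187 ± 1.61, TIMP1 at 124 ± 2.21 and MMP15 at 36.0 ± 1.67 CPM per kilobase (SD, n = 4). PLAUR, at 9.41 ± 0.375, now lay above TIMP3, at 7.61 ± 0.518. MMP14 moved to the sixth place with 0.614 ± 0.0837, followed by PLAU at 0.419 ± 0.0650 and PLAT at 0.0853 ± 0.0341. At 5 µM the libraries of each gene lay apart from those of the next gene in this order. At 2.5 µM, MMP14 overlapped PLAU and PLAU overlapped PLAT.

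**Figure D1:**
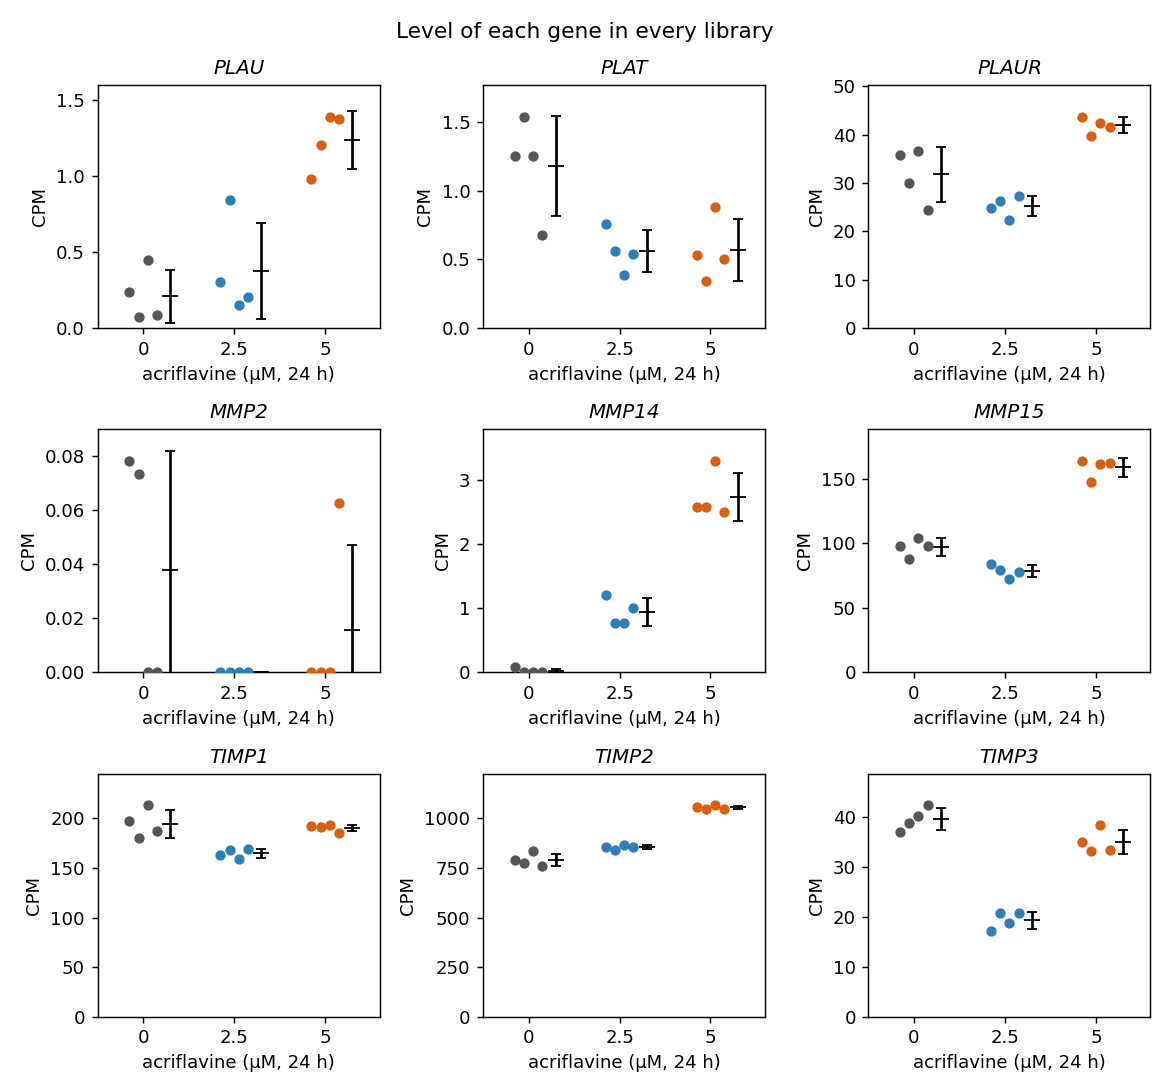
Level of each gene in CPM (vertical axis from 0, separate scale per gene) in the 4 libraries of each acriflavine dose (0, 2.5 and 5 µM; 0 is the control). Points are libraries, and bars are the mean ± SD. MMP14 was at 0 or 0.0781 CPM in the controls and at 2.50 to 3.30 CPM at 5 µM, while TIMP3 was lowest at 2.5 µM, at 17.2 to 20.8 CPM.

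Among the plasminogen activators, PLAU rose at 5 µM and PLAT fell at both doses. PLAU was at 0.234, 0.0733, 0.448 and 0.0846 CPM in the controls, at 0.303, 0.844, 0.154 and 0.202 CPM at 2.5 µM, and at 0.980, 1.20, 1.39 and 1.37 CPM at 5 µM. All 5 µM libraries lay above all others, while the 2.5 µM and control libraries overlapped. The level at 5 µM was 5.96-fold that of the controls by the fit, a log2 fold change of 2.58 ± 0.45 (SE, edgeR adjusted p = 5.27e-06). It rested on 66 counts at 5 µM and 10 in the controls, a count ratio of 6.21 with a 95% counting interval of 3.17 to 13.6. At 2.5 µM the change was 0.88 ± 0.59 (adjusted p = 0.202), and 12 of the 21 counts of that group came from replicate 2, without which the value was 0.11. Against 2.5 µM, PLAU was higher at 5 µM by 1.699 ± 0.38 on the log2 scale (adjusted p = 0.000214), and by 2.46 without that replicate. PLAU passed the low count filter through the 5 µM libraries, since 0 control libraries reached the filter's cutoff.

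PLAT was at 1.25, 1.54, 1.25 and 0.677 CPM in the controls, at 0.757, 0.563, 0.385 and 0.538 CPM at 2.5 µM, and at 0.535, 0.344, 0.879 and 0.49995 CPM at 5 µM. Control replicate 4, the lowest of its group, fell among the treated libraries, so the groups overlapped at both doses. PLAT fell by 1.05 ± 0.33 on the log2 scale at 5 µM (edgeR adjusted p = 0.00464) and by 1.07 ± 0.33 at 2.5 µM (adjusted p = 0.00529). The doses differed by 0.03 ± 0.38 (adjusted p = 0.957), a value whose sign turned without 2.5 µM replicate 3 (-0.11) or 5 µM replicate 3 (-0.26), and the count ratio between them was 1.02 with a 95% counting interval of 0.596 to 1.74. It had 59 counts in the controls, 31 at 2.5 µM and 30 at 5 µM, and only 3 control libraries and 1 library at 5 µM reached the filter's cutoff.

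PLAUR, the receptor that holds urokinase at the cell surface, was far more abundant than either activator. It was at 35.9, 30.0, 36.7 and 24.5 CPM in the controls, at 24.9, 26.3, 22.4 and 27.2 CPM at 2.5 µM, and at 43.7, 39.8, 42.5 and 41.7 CPM at 5 µM. Every 5 µM library was above every other library, and the control libraries spread down into the range of 2.5 µM. PLAUR rose at 5 µM by 0.40 ± 0.09 on the log2 scale, a 1.32-fold difference (edgeR adjusted p = 0.000209). At 2.5 µM it fell by 0.33 ± 0.09 (adjusted p = 0.00348). Between the doses it was 1.66-fold higher at 5 µM (log2 fold change 0.73 ± 0.09, adjusted p = 5.15e-08).

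The membrane-anchored metalloproteinases took different courses. MMP14 was at 0.0781, 0, 0 and 0 CPM in the controls, at 1.21, 0.774, 0.771 and 1.01 CPM at 2.5 µM, and at 2.58, 2.58, 3.30 and 2.50 CPM at 5 µM. The 3 groups did not overlap and rose with dose. MMP14 had 1 count in the controls, 52 at 2.5 µM and 144 at 5 µM. The count ratio was 136 at 5 µM against control (95% counting interval 23.9 to 5391) and 46.5 at 2.5 µM against control (7.99 to 1872). The fitted log2 fold changes of 6.53 ± 0.49 and 5.00 ± 0.64 (edgeR adjusted p = 6.21e-14 and 4.60e-08) depend on the count added before taking logs and on control replicate 1, without which they were 8.17 and 6.64. With so few control counts the tests could find only a rise. Between the doses, where both groups had counts, MMP14 was 2.90-fold higher at 5 µM (1.53 ± 0.23, adjusted p = 5.01e-07).

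MMP15 was at 98.1, 87.9, 105 and 97.7 CPM in the controls, at 84.1, 79.1, 72.6 and 78.2 CPM at 2.5 µM, and at 164, 148, 162 and 162 CPM at 5 µM. The 3 groups did not overlap, with 2.5 µM lowest. MMP15 rose 1.64-fold at 5 µM (log2 fold change 0.71 ± 0.05, edgeR adjusted p = 7.99e-14). At 2.5 µM it fell by 0.31 ± 0.06 on the log2 scale (adjusted p = 2.00e-05), and between the doses it was 2.03-fold higher at 5 µM (adjusted p = 3.46e-17). MMP2, the gelatinase that MMP14 is known to activate, had 3 counts over the 12 libraries: 2 in the controls, 0 at 2.5 µM and 1 at 5 µM. A count of 0 at 2.5 µM allows up to 0.0543 CPM there (3 counts over the group, counting error only), and no fold is given.

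**Figure D2:**
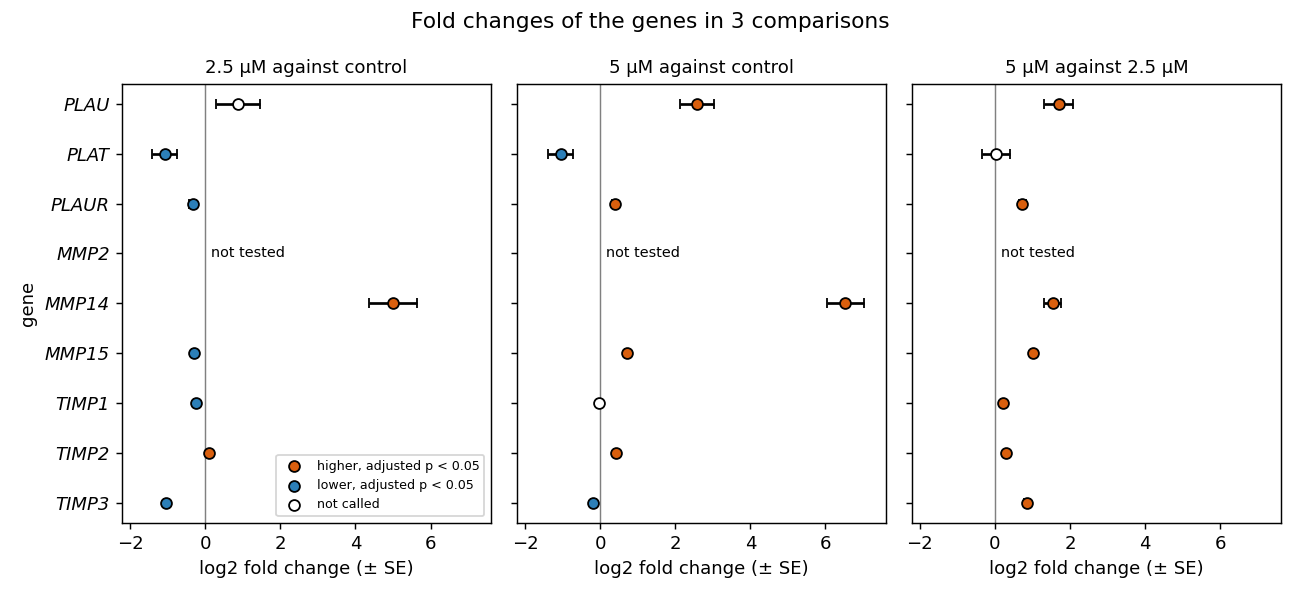
Log2 fold changes (horizontal axis) with standard errors of the 8 tested genes in the 3 comparisons, from 1 edgeR fit over 12 libraries. Filled points passed an adjusted p of 0.05, orange for higher and blue for lower, and MMP2 was not tested. MMP15, PLAUR, TIMP1 and TIMP3 lie below 0 at 2.5 µM against control and above 0 at 5 µM against 2.5 µM.

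The inhibitors differed from each other in how they moved. TIMP2 was at 792, 775, 833 and 762 CPM in the controls, at 856, 843, 867 and 858 CPM at 2.5 µM, and at 1060.0, 1048, 1067 and 1048 CPM at 5 µM. The 3 groups did not overlap. TIMP2 rose 1.34-fold at 5 µM (log2 fold change 0.42 ± 0.04, edgeR adjusted p = 2.90e-11) and 1.23-fold between the doses (0.30 ± 0.04, adjusted p = 5.74e-08). Its change at 2.5 µM was small, 0.12 ± 0.04 (adjusted p = 0.0146), and did not pass without control replicate 4 (0.10, adjusted p = 0.0522) or without 2.5 µM replicate 4 (0.10, adjusted p = 0.0576).

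TIMP1 was at 197, 179.9, 213 and 187 CPM in the controls, at 163, 169, 159.6 and 169 CPM at 2.5 µM, and at 192, 191, 193 and 185 CPM at 5 µM. The 2.5 µM libraries were the lowest of all, and the 5 µM libraries lay inside the control range. TIMP1 fell by 0.24 ± 0.05 on the log2 scale at 2.5 µM (edgeR adjusted p = 8.29e-05) and was higher at 5 µM than at 2.5 µM by 0.21 ± 0.05 (adjusted p = 0.000316). At 5 µM against control the difference was -0.03 ± 0.05 (adjusted p = 0.582), so no direction is given. Its sign turned with RLE scaling (0.000414), upper quartile scaling (0.0195) and DESeq2 (0.000457), none of them called. It was called higher with library size scaling (0.11, adjusted p = 0.0300), which moved the median of all genes to 0.12, against -0.01 with the reported scaling.

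TIMP3 showed the largest fall among these 3 inhibitors, at 2.5 µM. It was at 37.0, 38.8, 40.3 and 42.4 CPM in the controls, at 17.2, 20.8, 18.7 and 20.7 CPM at 2.5 µM, and at 35.1, 33.2, 38.4 and 33.4 CPM at 5 µM. All 2.5 µM libraries lay under all others, and the 5 µM and control libraries overlapped. TIMP3 fell by 1.03 ± 0.08 on the log2 scale at 2.5 µM (edgeR adjusted p = 1.60e-13) and was 1.81-fold higher at 5 µM than at 2.5 µM (0.85 ± 0.08, adjusted p = 1.08e-11). At 5 µM against control it was lower by a smaller step, -0.18 ± 0.07 (adjusted p = 0.0259). That last call was lost in 7 of 21 alternatives, among them the runs without control replicate 4 (-0.15, adjusted p = 0.0700), without 5 µM replicate 2 (-0.16, adjusted p = 0.0673) and without 5 µM replicate 4 (-0.15, adjusted p = 0.0737).

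In counts, 5 members were higher and 2 lower at 5 µM against control, where 78.2% of all 16839 genes tested passed in either direction, 38.7% higher and 39.4% lower. At 2.5 µM against control, 2 were higher and 5 lower, where 59.1% of genes passed, 30.7% higher and 28.5% lower. At 5 µM against 2.5 µM, 7 were higher and 0 lower, where 68.4% of genes passed, 33.6% higher and 34.8% lower. The groups did not overlap for 5 of the 8 genes at 5 µM against control, where 70.8% of all genes did not overlap. The share was 50.5% of all genes at 2.5 µM against control, with 5 of the 8 members, and 62.1% between the doses, with 7 of the 8. Because PLAU and MMP14 entered the test through the treated libraries, where they are high, these counts do not describe all 9 genes. A like limit holds for the counts of lower genes, since PLAT entered mainly through 3 control libraries, where it is high. Both comparisons with control share the control libraries. PLAUR, TIMP1, TIMP3 and MMP15 passed as lower at 2.5 µM than in the controls and as higher at 5 µM than at 2.5 µM. Of all genes tested, 5.94% did so. The 2 steps share the 2.5 µM libraries, so a low reading in those libraries would enter both. MMP14 and TIMP2 passed as higher at each step, as did 14.8% of all genes.

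Ratios of counts within a library do not depend on how libraries are scaled, and they were compared in 3 comparisons by an exact permutation test, with 6 pairs of genes described here. All tests are 2-sided, 0.0286 is the smallest p that 4 against 4 libraries allow, and adjustment runs over the 21 tests made on 7 pairs. The balance of the activator counts, not scaled to exon length, turned over. The log2 ratio of PLAU to PLAT was 1.14 ± 0.490 at 5 µM and -2.49 ± 1.01 in the controls (SD, n = 4, exact p = 0.0286, adjusted 0.0333). At 2.5 µM it was -0.77 ± 0.887, also apart from the controls (exact p = 0.0286, adjusted 0.0333). The gap between these groups was narrow, from -1.40 in the highest control library to -1.28 in the lowest at 2.5 µM. These ratios rest on few counts, since PLAU had 10 in the controls and 21 at 2.5 µM. The ratio of PLAU to its receptor PLAUR was higher at 5 µM than in the controls by 2.19 on the log2 scale (exact p = 0.0286, adjusted 0.0333), and the doses overlapped (exact p = 0.0857).

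Among the inhibitors, the log2 ratio of TIMP1 to TIMP2 was -2.47 ± 0.0194 at 5 µM and -2.03 ± 0.0595 in the controls (SD, n = 4, exact p = 0.0286, adjusted 0.0333). At 2.5 µM it was -2.38 ± 0.0538, between the others and apart from both. The log2 ratio of TIMP3 to TIMP2 was -4.91 ± 0.0842 at 5 µM and -4.32 ± 0.108 in the controls, and it was lowest at 2.5 µM, at -5.47 ± 0.139 (exact p = 0.0286, adjusted 0.0333, in each comparison). TIMP3 was thus lower relative to TIMP2 at both doses, whatever the scaling. The ratio of MMP14 to its membrane-anchored relative MMP15 was 1.42-fold higher at 5 µM than at 2.5 µM, with log2 ratios of -5.85 ± 0.181 and -6.35 ± 0.244 (exact p = 0.0286, adjusted 0.0333). The ratio of MMP14 to TIMP2 was 2.33-fold higher at 5 µM than at 2.5 µM (exact p = 0.0286, adjusted 0.0333). Both MMP14 ratios also lay apart from the controls, but their size there is set by the 0.5 added to each count, since 3 control libraries had 0 MMP14 counts. No ratio with MMP2 is given, because its 3 counts carry none.

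**Figure D3:**
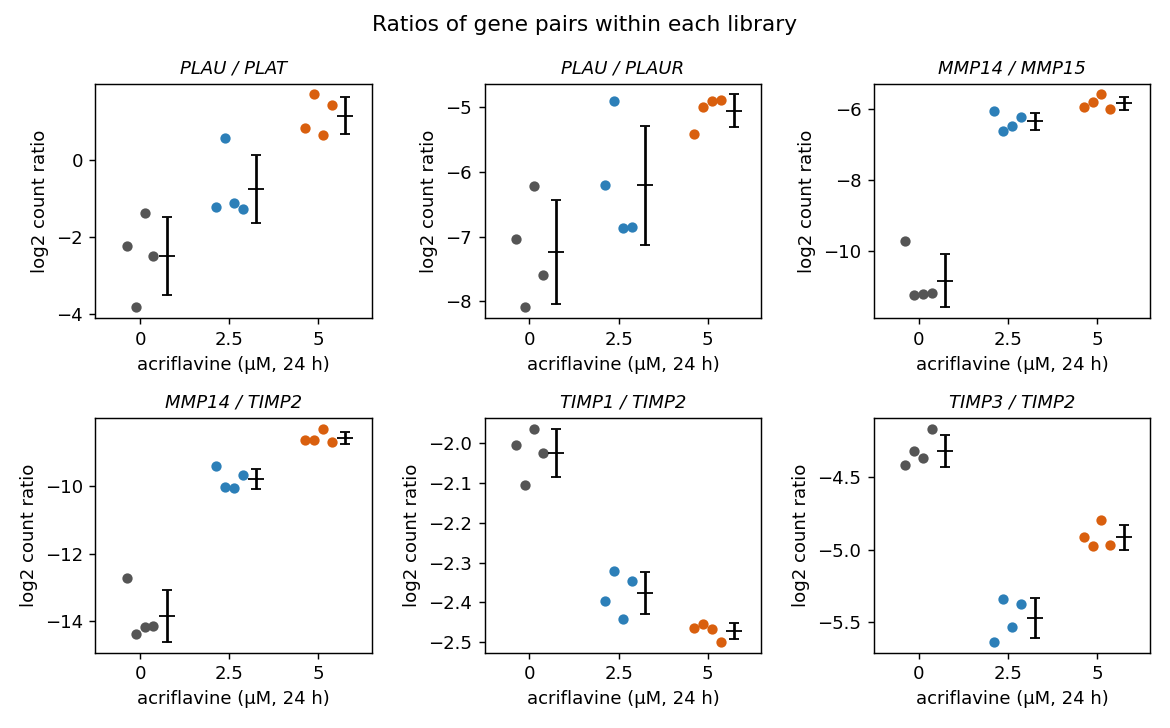
Log2 of the count ratio of 6 gene pairs within each library (vertical axis, 0.5 added to each count, separate scale per pair) by acriflavine dose (0, 2.5 and 5 µM; 0 is the control). Points are libraries, and bars are the mean ± SD of 4. The PLAU to PLAT ratio averaged -2.49 in the controls, -0.77 at 2.5 µM and 1.14 at 5 µM, and the TIMP3 to TIMP2 ratio was lowest at 2.5 µM, at -5.47.

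The genes around these members were taken from 8 lists. Of 9 inhibitors of plasminogen activation and plasmin, 5 were tested at 5 µM, and 5 rose and 0 fell, with a median log2 fold change of 1.16, against -0.01 over all genes tested. Over all genes tested at 5 µM against control, 38.7% rose and 39.4% fell, the shares against which the counts of all 8 lists are to be read. SERPINE2, which encodes the urokinase and thrombin inhibitor protease nexin-1, was at 266 ± 13.3 CPM at 5 µM and 66.8 ± 6.46 CPM in the controls (SD, n = 4, log2 fold change 2.00 ± 0.06). A2M, a broad protease trap, was at 2.79 ± 0.517 CPM at 5 µM and 0.312 ± 0.166 CPM in the controls (log2 fold change 3.16 ± 0.32), and 0 control libraries reached the filter's cutoff for it. SERPINB2, an inhibitor of urokinase, had 13 counts at 5 µM and 4 in the controls and was not tested.

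Plasminogen itself (PLG) had 0 counts in all 12 libraries, which allows up to 0.0571 CPM at 5 µM and 0.0607 CPM in the controls (counting error only). Of 13 genes for plasminogen and the surface partners of plasminogen and the urokinase receptor, 11 were tested at 5 µM. Of these 4 rose and 6 fell, with a median of -0.29. ANXA2, which with S100A10 forms a surface receptor for plasminogen and PLAT, was at 1106 ± 29.7 CPM at 5 µM and 867 ± 21.6 CPM in the controls (log2 fold change 0.35 ± 0.04, edgeR adjusted p = 1.49e-09). S100A10 was at 426 ± 11.4 CPM at 5 µM and 411 ± 32.5 CPM in the controls (0.05 ± 0.05, adjusted p = 0.320). It passed as higher with upper quartile scaling (0.10) and library size scaling (0.19). ENO1, a glycolytic enzyme that also binds plasminogen at the surface, was at 924 ± 42.0 CPM at 5 µM and 2344 ± 170.3 CPM in the controls (-1.34 ± 0.05). VLDLR, a lipoprotein receptor that clears protease and inhibitor complexes, was at 36.7 ± 3.03 CPM at 5 µM and 14.0 ± 0.925 CPM in the controls (1.39 ± 0.08). The integrin chain ITGB1, a partner of PLAUR, was at 368 ± 18.5 CPM at 5 µM and 645 ± 48.0 CPM in the controls (-0.81 ± 0.05).

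Few of the other metalloproteinases were tested, and those tested rose at 5 µM. Of 20 listed, 6 were tested, 6 rose and 0 fell, with a median of 2.42. Without a low count filter 11 were called higher, in a fit of 30981 genes whose median was 0.11. The genes that this adds had too few control counts for a fall to be seen. For 3 of the 6, 0 control libraries reached the filter's cutoff, so a fall of these could not have been seen. MMP1, interstitial collagenase, had 5 counts in the controls, 13 at 2.5 µM and 248 at 5 µM, a count ratio at 5 µM of 46.7 with a 95% counting interval of 19.7 to 145. Its fitted log2 fold change was 5.42 ± 0.36, and 6.20 without control replicate 1. MMP19 was at 3.42 ± 0.272 CPM at 5 µM and 0.320 ± 0.0907 CPM in the controls (SD, n = 4, log2 fold change 3.36 ± 0.27). MMP11, or stromelysin-3, was at 1.33 ± 0.437 CPM at 5 µM and 0.0814 ± 0.00713 CPM in the controls (3.87 ± 0.49). It had 69 counts at 5 µM and 4 in the controls, so the small control SD does not mean a precise level. The count ratio was 16.2, with a 95% counting interval of 6.06 to 61.3. MMP7, or matrilysin, was at 7.44 ± 1.18 CPM at 5 µM and 3.57 ± 0.544 CPM in the controls (1.08 ± 0.15, edgeR adjusted p = 5.11e-08). MMP24, named after its values were seen, was the most abundant of those tested. It was at 85.7 ± 4.48 CPM at 5 µM, 109 ± 3.53 CPM at 2.5 µM and 74.4 ± 5.43 CPM in the controls. MMP9, the other gelatinase, had 16 counts at 5 µM and 4 in the controls and was not tested.

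Of 12 other regulators of metalloproteinases, 9 were tested at 5 µM, of which 5 rose and 1 fell, with a median of 0.31. FURIN, a convertase that removes the propeptide of MMP14 and MMP15, was at 173 ± 5.59 CPM at 5 µM and 42.3 ± 4.26 CPM in the controls (SD, n = 4, log2 fold change 2.03 ± 0.06). THBS1, a matrix protein that binds MMP2 and MMP9, was at 692 ± 42.7 CPM at 5 µM and 151 ± 23.7 CPM in the controls (2.198 ± 0.08). CD63, a tetraspanin that binds TIMP1 at the surface, was at 717 ± 24.0 CPM at 5 µM and 481 ± 34.5 CPM in the controls (0.58 ± 0.05). TIMP4, the remaining family member, was at 9.54 ± 0.475 CPM at 5 µM and 7.73 ± 0.363 CPM in the controls (0.31 ± 0.11, edgeR adjusted p = 0.00965). At 2.5 µM TIMP4 was lower than in the controls (-0.30 ± 0.11, adjusted p = 0.0213). That call was lost without 2.5 µM replicate 1 (adjusted p = 0.0583) or 2 (adjusted p = 0.0526). RECK, a membrane-bound inhibitor, was at 11.04 ± 0.691 CPM at 5 µM and 12.1 ± 0.676 CPM in the controls (-0.14 ± 0.10, adjusted p = 0.194). BSG, an inducer of metalloproteinases, was at 1150.5 ± 45.1 CPM at 5 µM and 1111 ± 91.2 CPM in the controls (0.05 ± 0.05, adjusted p = 0.350, but 0.19 and called higher with library size scaling).

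Of 30 ADAM and ADAMTS proteases, 19 were tested at 5 µM, of which 9 rose and 4 fell, with a median of 0.28. For ADAMTS4 and ADAMTS13, 0 control libraries reached the filter's cutoff, so a fall of these could not have been seen. The aggrecanase ADAMTS4 was at 3.65 ± 0.369 CPM at 5 µM and 0.142 ± 0.0803 CPM in the controls (SD, n = 4, log2 fold change 4.599 ± 0.32). It had 192 counts at 5 µM and 7 in the controls. ADAMTS1 was at 38.4 ± 3.07 CPM at 5 µM and 12.8 ± 0.934 CPM in the controls (1.58 ± 0.09), and ADAMTS13, which cleaves von Willebrand factor, at 4.80 ± 0.766 CPM at 5 µM and 0.623 ± 0.0732 CPM in the controls (2.90 ± 0.23). Of 15 membrane serine proteases, their inhibitors and receptors, 9 were tested, of which 5 rose and 3 fell, with a median of 0.25. The protease-activated receptors F2R (log2 fold change 1.35 ± 0.07) and F2RL1 (1.86 ± 0.08) and the matriptase inhibitor SPINT1 (2.99 ± 0.07) rose. Of 11 cathepsins and cystatins, 10 were tested, of which 5 rose and 3 fell, with a median of 0.18. With library size scaling 1 was called lower, in place of 3. The lysosomal proteases CTSB (0.90 ± 0.05), CTSZ (0.60 ± 0.05) and CTSS (1.59 ± 0.14) were among those that rose.

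AP-1 and ETS factors are known regulators of PLAU, PLAUR and metalloproteinase promoters. Of 9 listed, 9 were tested at 5 µM, of which 3 rose and 5 fell, with a median of -0.20. FOSL2 was at 246 ± 11.7 CPM at 5 µM and 399 ± 12.1 CPM in the controls (SD, n = 4, log2 fold change -0.70 ± 0.04). JUNB was at 82.7 ± 3.21 CPM at 5 µM and 158 ± 15.8 CPM in the controls (-0.94 ± 0.06), and ETS2 at 167 ± 3.22 CPM at 5 µM and 222 ± 11.6 CPM in the controls (-0.42 ± 0.05). FOSL1 (0.68 ± 0.09), FOSB (1.05 ± 0.16) and FOS (0.31 ± 0.12), named after their values were seen, rose and completed the called factors with JUND (-0.51 ± 0.09) and JUN (-0.20 ± 0.06).

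At 2.5 µM against control, the plasminogen inhibitor list had 4 genes higher and 0 lower of 5 tested, with a median of 0.87, against 0.02 over all genes tested, of which 30.7% were higher and 28.5% lower. The plasminogen and urokinase receptor partners had 3 higher and 4 lower of 11, the other metalloproteinases 2 and 0 of 6, and the other regulators 4 and 2 of 9. For 3 of these 6 metalloproteinases and 1 of the 5 plasminogen inhibitors, 0 control libraries reached the filter's cutoff. A fall of these could not have been seen. The same held for 2 of the ADAM and ADAMTS genes. The ADAM and ADAMTS list had 7 higher and 4 lower of 19, membrane serine proteases 4 and 5 of 9, cathepsins and cystatins 2 and 4 of 10, and AP-1 and ETS factors 1 and 4 of 9. Some of these counts turned on a library or on the processing. A2M was not called without control replicate 2 (0.68, edgeR adjusted p = 0.185), control replicate 4 (1.09, adjusted p = 0.0548), 2.5 µM replicate 1 (0.83, adjusted p = 0.140) or 2.5 µM replicate 4 (1.05, adjusted p = 0.0579), which leaves 3 plasminogen inhibitors higher. Without control replicate 1, 2 ADAM and ADAMTS genes were lower. Without control replicate 4 or 2.5 µM replicate 4, 1 cathepsin or cystatin was higher. Without 2.5 µM replicate 1 or 2, 1 of the other regulators was lower. Without 2.5 µM replicate 2, 2 AP-1 and ETS factors were higher, and without 2.5 µM replicate 1, 1 of the other metalloproteinases was lower. With library size scaling, limma voom or only the groups compared, 2 AP-1 and ETS factors were also higher. The fit of only the groups compared called 1 of the other metalloproteinases higher. Without a low count filter 1 of the other regulators was lower. A2M was not called without that filter (edgeR adjusted p = 0.0600) or with DESeq2 (adjusted p = 0.0607). Between the doses, where 33.6% of all genes tested were higher at 5 µM and 34.8% lower, the other metalloproteinases had 5 higher and 1 lower of 6 at 5 µM, with a median of 2.09, and the plasminogen inhibitors 4 and 0 of 5, with a median of 1.04. MMP1, MMP11 and ADAMTS4 passed the low count filter through the 5 µM libraries alone, so a fall of these between the doses could not have been seen. A2M and MMP19 passed it mainly through those libraries, with 1 and 2 libraries at 2.5 µM reaching the cutoff. In the same comparison the other regulators had 5 higher and 0 lower of 9, and receptor partners 3 and 5 of 11. With library size scaling 8 of the other regulators were higher. Of the remaining lists, ADAM and ADAMTS had 8 and 3 of 19, membrane serine proteases 6 and 1 of 9, cathepsins and cystatins 6 and 0 of 10, and AP-1 and ETS factors 3 and 5 of 9. The membrane serine protease called lower was not called with RLE, upper quartile or library size scaling or with DESeq2, which left 0 lower. Without 2.5 µM replicate 3, 1 of the plasminogen inhibitors was lower.

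**Figure D4:**
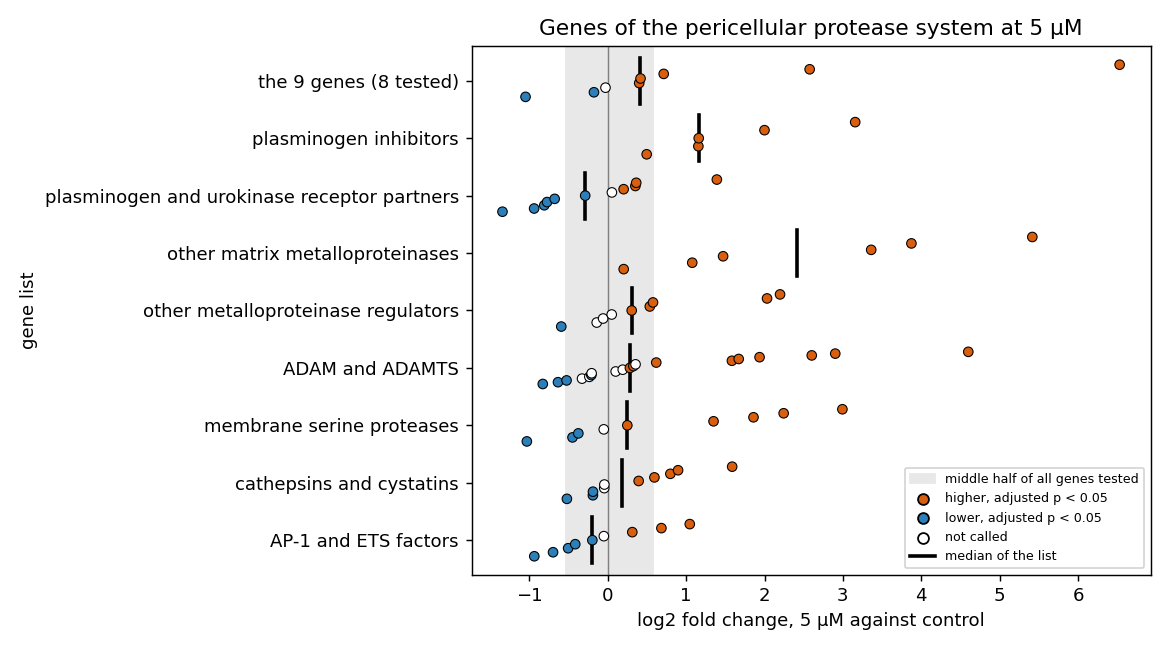
Log2 fold change at 5 µM against control (horizontal axis) of the tested genes of 9 gene sets (vertical axis). Each point is a gene, orange if higher and blue if lower at an adjusted p of 0.05, black bars are list medians, and the grey band is the range from the lower to the upper quartile of all 16839 genes tested, -0.53 to 0.57. The 6 tested genes among the other metalloproteinases and the 5 among the plasminogen inhibitors all lie above 0. For 3 of these 6 and 1 of these 5, 0 control libraries reached the low count filter's cutoff, so a fall could not have been seen.

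The genes whose log2 CPM followed each member most closely over the 12 libraries were found by Pearson correlation among 13834 genes. These correlations are descriptive, and they share the same libraries and 3 dose groups. TIMP2 was followed most closely by ATG13 (r = 0.997), MMP14 by the antisense gene RPL26L1-AS1 (0.996), MMP15 by EPHX1 (0.992) and TIMP3 by HMOX1 (0.987). MMP14 and TIMP2 also had 1728 and 1705 other genes at r over 0.9, whereas TIMP3 had 130 and TIMP1, closest to FAM229B (0.962), had 54. PLAUR was followed most closely by MAPK7 (0.977) and PLAU by CST3 (0.947). PLAT, with the fewest counts after PLAU and MMP2, was closest to SCAPER (0.905), the 1 gene over 0.9. Among the members themselves, the closest pair was MMP15 and PLAUR (r = 0.905), and the most opposed was MMP14 and PLAT (-0.68).

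Exon overlap limits what some counts can say. For genes on opposite strands this depends on the strand setting of the counting, which is not given in the sources used here. In the GENCODE 29 annotation, PLAU shares 916 of its 2950 exon bases with C10orf55 on the opposite strand. Reads from those bases cannot be assigned by position alone, and C10orf55 had 5 counts over the 12 libraries. TIMP2 shares 367 of 5633 exon bases with an antisense gene and 198 with CEP295NL on the same strand, which had 9 and 80 counts. MMP2 shares 174 bases with a transcript on the same strand whose coding status is not settled. That transcript was not among the counted rows. The other 6 members share no exon bases with another gene.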

How the data were processed

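The authors deposited a single table of unnormalized counts, whole numbers, with a row for each Ensembl identifier, from 12 stranded poly-A libraries. Per the submitters' processing notes, which give no roles, GRCh37, edgeR 3.8.6, STAR 2.4.1d, featureCounts 1.4.6, Bowtie2 2.2.4, SAMtools 1.1, cutadapt 1.7.1, bedtools 2.17.0 and Cufflinks 2.1.1 were used. The sources used here do not give the strand setting or how multiply mapped reads were treated. Symbols were found for 51989 of 63152 rows, holding 99.3% of counts.

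Counts were filtered with filterByExpr (10 counts at the median total, 0.759 CPM, in at least 4 libraries), scaled by TMM and tested in 1 quasi-likelihood fit of 12 libraries and 3 groups (edgeR 4.0.16, limma 3.58.1, R 4.3.3), with Benjamini-Hochberg adjustment over 16839 genes and a threshold of 0.05. CPM uses TMM-scaled totals. The SE is the absolute log2 fold change divided by the square root of F, and can be too small where a group has few counts. Levels per kilobase divide CPM by the exon length in GENCODE 29, an annotation of GRCh38, so no coordinates of the counted genes are given. Ratios were tested by exact permutation. Counting intervals are Clopper-Pearson and cover counting error only, since amplified copies are not independent molecules. Of these steps only the edgeR test was tried on simulated counts. The changes there were set in genes with more counts than PLAU, PLAT or MMP14 had in the controls.

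The members and gene lists were chosen with earlier results of these data known. Named genes are the 9 members, 12 genes named whatever their values, the 3 tested genes with the smallest p at 5 µM in each of 8 lists, and the gene most correlated with each member. Others are named where stated. Alternatives were 3 other scalings, 2 other filters, DESeq2 1.42.0, limma voom, fits of only the groups compared, a replicate block and leaving out each library. Ratios with MMP2 were left out for want of counts, and a few results covered by these rules and tests are not reported here. Promoter sequences are RefSeq's on GRCh38.p14, matched by symbol for 6 of the 9 members, with 7 windows in all.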

Additional observations from a re-analysis of the deposited data

Results flagged for a closer look

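Among 24 groups of 4 libraries (8 members in 3 groups), 3 held a library that stood apart from the other 3 by Dixon's 95% criterion for its gap over the group's range, where chance flags about 1 in 20 groups. MMP14 at 5 µM was at 3.30 CPM in replicate 3 and between 2.50 and 2.58 CPM in the other 3. MMP14 in control replicate 1 was at 0.0781 CPM, a single count, against 0 in the other 3 control libraries. A single count beside zeros always meets this criterion, so the rate of 1 in 20 does not apply to it. MMP15 at 5 µM was at 148 CPM in replicate 2 and between 162 and 164 CPM in the others.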

How the results depend on the processing

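Over 21 alternatives, 488 of 498 values of the members' fold changes kept their side of the threshold. Among these, sign changes came in values called in neither fit. TIMP1 at 5 µM against control was 0.000414 with RLE scaling, 0.0195 with upper quartile scaling and 0.000457 with DESeq2. PLAT at 5 µM against 2.5 µM was -0.00916 with limma voom, -0.11 without 2.5 µM replicate 3 and -0.26 without 5 µM replicate 3. TIMP1 at 5 µM against control turned to 0.11 with library size scaling. TIMP3 at 5 µM against control missed the threshold with RLE scaling (-0.15), upper quartile scaling (-0.13), library size scaling (-0.0414) and DESeq2 (-0.15), and with single libraries left out its value ran from -0.22 to -0.15. At 5 µM against control 1 member was then called lower, in place of 2, with RLE, upper quartile or library size scaling, or with DESeq2, and 1 to 2 with single libraries left out. A filter of 1 CPM in 4 libraries also left 1, because PLAT was not tested with it. TIMP2 at 2.5 µM against control ran from 0.10 to 0.12 with single libraries left out, and 1 to 2 members were then called higher there. The cause of these changes was not tested.

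Library size scaling moved the median log2 fold change of all genes at 5 µM against control to 0.12, against -0.01, and 7641 genes were then higher and 5464 lower, against 6524 and 6641 with TMM, 6741 and 6372 with RLE, and 6931 and 6223 with upper quartile scaling. No replicate pairing was found: same-numbered libraries deviated together with correlations of -0.13 to 0.07, and a replicate block gave 13091 genes at 5 µM against control, against 13165, with 7 members called as before and no change to any call of a member. Of the 231 ratio values, 223 moved by less than the spread between libraries, and the other 8 were MMP14 ratios against the controls, which changed with the count added. With a library left out the ratio test was not run, so those are values only. Depth limits PLAU, PLAT and MMP14, with 97, 120 and 197 counts over 12 libraries, and MMP2, with 3.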
